A study of Mus musculus with 7 samples.

Results

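The 10 genes described here encode proteins of neutrophil granules and other effector proteins of myeloid cells, and they were taken by name: Mpo, Elane, Prtn3, Ctsg, Ms4a3, Lyz2, S100a8, S100a9, Ltf and Camp, out of 21938 protein-coding genes of GENCODE M21. Open chromatin regions (OCRs) were counted as theirs when they overlapped the gene body or the 20 kb on either side of it in mm10. These windows held 65 of the 144931 OCRs found when the peaks of all libraries were merged, and 45 of the 65 were present in all 7 libraries, against 66979 OCRs in the whole series. The data are the bulk ATAC-seq peak lists of 7 libraries of HPC7, a mouse hematopoietic progenitor line immortalised with the LIM-homeobox factor Lhx2 and kept in medium with mouse stem cell factor. The labels give all 7 libraries the same condition, and the study describes the libraries as made from independent culture batches. The replicates are therefore batches of a single line, and no test between treatments was made. Some values are also given by the names of the peaks, as described below. In ATAC-seq the Tn5 transposase inserts adapters into accessible DNA, and an OCR is a stretch where the inserted ends pile up above the background of the library.

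Neutrophil granules are filled in a fixed order as progenitors mature. Myeloperoxidase (Mpo) and the serine proteases neutrophil elastase (Elane), proteinase 3 (Prtn3) and cathepsin G (Ctsg) are made first, at the promyelocyte stage, and packed into the primary (azurophil) granules. Lactoferrin (Ltf) and the cathelicidin precursor (Camp) are made later, at the myelocyte stage, for the secondary granules, and S100a8 and S100a9 encode the subunits of calprotectin, the most abundant cytosolic protein complex of mature neutrophils. Ms4a3 is a membrane protein of granulocyte and monocyte progenitors, and Lyz2 encodes lysozyme M, an enzyme of granulocytes and macrophages that cuts bacterial cell walls. PU.1 of the ETS family, C/EBP factors, RUNX1 and MYB are known regulators of the early granule genes, and C/EBP epsilon is known for the late ones.

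The sequences on which the description turns are those just upstream of the coding starts and those at the summits of the strongest OCRs. They are GRCm38 reference sequence, which has the coordinates of mm10, written 5′ to 3′ on the strand of the gene. Capitals mark matches on either strand to the ETS motif AGGAAGT, the C/EBP motif TTGCNNAA, the RUNX motif TGTGGT, the motif of GATA factors AGATAA or the MYB motif AACNGNC, and no 2 matches of different motifs shared bases in the sequences examined. The 150 bases before the first coding transcript start are shown for 3 early genes, for Ms4a3 and Lyz2, and for Ltf and Camp, which had no OCR there.
Mpo start, chr11:87793431-87793580, plus strand: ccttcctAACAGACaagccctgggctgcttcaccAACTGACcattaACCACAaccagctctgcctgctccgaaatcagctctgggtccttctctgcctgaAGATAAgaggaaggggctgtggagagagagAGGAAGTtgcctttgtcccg
Elane start, chr10:79886097-79886246, plus strand: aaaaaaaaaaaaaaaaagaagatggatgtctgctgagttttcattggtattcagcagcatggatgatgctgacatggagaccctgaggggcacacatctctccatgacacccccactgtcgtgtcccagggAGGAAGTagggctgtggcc
Prtn3 start, chr10:79879464-79879613, plus strand: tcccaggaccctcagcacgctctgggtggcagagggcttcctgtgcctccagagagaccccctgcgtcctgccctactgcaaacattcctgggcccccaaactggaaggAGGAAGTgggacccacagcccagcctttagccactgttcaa
Ms4a3 start, chr19:11640835-11640984, minus strand: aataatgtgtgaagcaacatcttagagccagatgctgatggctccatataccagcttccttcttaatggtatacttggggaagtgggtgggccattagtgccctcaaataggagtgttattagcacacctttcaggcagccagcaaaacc
Lyz2 start, chr10:117282322-117282471, minus strand: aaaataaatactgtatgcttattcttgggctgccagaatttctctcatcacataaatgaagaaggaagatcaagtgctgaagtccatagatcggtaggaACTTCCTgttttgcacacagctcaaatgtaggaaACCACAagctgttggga
Ltf start, chr9:111019121-111019270, plus strand: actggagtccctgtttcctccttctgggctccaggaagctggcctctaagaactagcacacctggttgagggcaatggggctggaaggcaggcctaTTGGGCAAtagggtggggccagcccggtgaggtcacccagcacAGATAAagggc
Camp start, chr9:109849618-109849767, minus strand: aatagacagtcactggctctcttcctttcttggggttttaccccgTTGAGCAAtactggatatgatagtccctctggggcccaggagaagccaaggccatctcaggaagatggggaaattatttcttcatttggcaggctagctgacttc

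The 121 bases around the mean summit are shown for the upstream OCR of Mpo, for the intronic OCR of Prtn3 and the lone OCR of Ctsg, and for the strongest distal OCR of Mpo, Ms4a3, Ltf and Camp.
Mpo upstream OCR, chr11:87790218-87790338: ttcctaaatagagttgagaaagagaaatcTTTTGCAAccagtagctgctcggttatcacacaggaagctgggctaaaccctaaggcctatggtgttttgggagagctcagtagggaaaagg
Mpo distal OCR, chr11:87808403-87808523: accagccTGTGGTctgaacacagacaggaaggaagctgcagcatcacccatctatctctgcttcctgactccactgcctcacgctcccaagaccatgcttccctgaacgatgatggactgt
Prtn3 intronic OCR, chr10:79877357-79877477: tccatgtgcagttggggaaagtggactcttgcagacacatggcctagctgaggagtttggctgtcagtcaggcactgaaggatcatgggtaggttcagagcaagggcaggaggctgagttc
Ctsg OCR, chr14:56099069-56099189: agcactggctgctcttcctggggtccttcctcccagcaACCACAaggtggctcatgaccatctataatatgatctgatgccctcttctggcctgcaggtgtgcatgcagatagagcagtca
Ms4a3 distal OCR, chr19:11611705-11611825: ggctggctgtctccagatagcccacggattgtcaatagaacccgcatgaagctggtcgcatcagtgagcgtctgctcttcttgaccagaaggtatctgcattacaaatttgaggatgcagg
Ltf distal OCR, chr9:111046367-111046487: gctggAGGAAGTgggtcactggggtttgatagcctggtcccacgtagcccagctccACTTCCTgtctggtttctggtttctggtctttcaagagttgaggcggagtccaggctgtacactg
Camp distal OCR, chr9:109863149-109863269: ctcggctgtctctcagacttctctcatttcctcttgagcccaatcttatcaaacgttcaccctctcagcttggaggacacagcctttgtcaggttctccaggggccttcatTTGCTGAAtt

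ETS letters stood within 150 bases of the coding starts of Mpo, Elane, Prtn3, Lyz2 and S100a8, where 4.98% of the 21853 protein-coding genes with a coding transcript start hold them. C/EBP letters stood there in Ltf and Camp, against 4.92% of genes. RUNX letters preceded Mpo, Ctsg, Lyz2 and S100a9 (7.76% of genes), GATA letters Mpo, S100a9 and Ltf (4.75%), and MYB letters Mpo, with 2 matches, and Ctsg, with 1 (17.3%). None of the 5 motifs was found before Ms4a3. At the summits of the 45 OCRs present in all libraries, windows of 301 bases held ETS letters in 24.4%, C/EBP in 11.1%, RUNX in 37.8%, GATA in 17.8% and MYB in 40.0%, where all 66979 shared OCRs held them in 20.5%, 10.8%, 33%, 19.3% and 35.6%. These shares of the 45 lay close to the background. Of the summits shown, the upstream OCR of Mpo held C/EBP letters, and the distal OCR of Mpo and the OCR of Ctsg held RUNX letters. The wider window of the Ltf distal OCR held 3 ETS matches and 1 RUNX match, of which 2 ETS matches lie in the 121 bases printed. That of the Camp distal OCR held 2 C/EBP matches, 1 of them printed, with 1 ETS and 1 GATA match, and that of the Prtn3 intronic OCR 2 MYB matches outside the printed bases. None of the 5 motifs was found at the Ms4a3 distal OCR. A match is a run of letters and not a measured binding site.

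The lists held between 84593 peaks (HPC7-6) and 132852 peaks (HPC7-1), and between 54 and 68 peaks of a library lay in the windows of the 10 genes. The height of a peak is given as fold enrichment, the reads at its summit over the background of the library, with 1 added to both. Before that addition, the background lay between 4.44 reads in HPC7-2 and 20.4 reads in HPC7-1. The lowest fold enrichment listed was between 1.68 and 2.44, so that a gene without an OCR is one where no signal above about that height was listed, and weaker accessibility was not detectable. Because heights are not normalised between libraries, each was also placed as a percentile among all peaks of its library. HPC7-6 had the lowest fold enrichment at 77.8% of the 45 shared OCRs of the windows and at 77.3% of all shared OCRs. The names given to peaks start with VD for HPC7-1, HPC7-2 and HPC7-4, while EtOH opens those of the other 4, a difference the labels do not explain, so that the 7 were kept as a single group. The fold enrichments of these sets of libraries did not overlap at 2 of the 45 shared OCRs, both higher in the VD-named libraries, where 1.58% of all shared OCRs were so, and at 0 of 45 in the other direction (0.188%). As a check of the label, all 9 progenitor markers listed (Kit, Cd34, Gata2, Tal1, Lmo2, Lyl1, Spi1, Runx1 and Ptprc) had an OCR over a coding start in every library, as did 52.0% of all protein-coding genes. Their median promoter percentile was 94.6, near the median of 93.1 over all genes with a promoter OCR in all libraries, so that the height of these OCRs does not set the markers apart. A promoter OCR in all libraries, found for 60.9% of all genes, was present at 4 of 5 erythroid, 2 of 5 lymphoid, 2 of 4 macrophage, 1 of 4 eosinophil, 5 of 10 mast cell and basophil, and 2 of 5 non-blood markers, among which Pax6, a gene of the eye and brain, had a percentile of 96.4 ± 0.905. The markers thus check the label only in part.

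A promoter OCR, defined as an OCR within 3 kb of any annotated transcript start of the gene, was present in all 7 libraries at 6 of the 10 genes, where 60.9% of all protein-coding genes had 1. These were the 4 early granule genes, Ms4a3 and Lyz2. Camp had a promoter OCR in 3 libraries, and S100a8, S100a9 and Ltf had none in any library, as did 32.0% of all genes. Within 1 kb the count was 5 of 10, against 56.4% of all genes, because the OCR of Ctsg lay farther away. An OCR over a coding transcript start itself was present in all libraries at 4 of 10, namely Mpo, Prtn3, Ms4a3 and Lyz2, against 52.0% of all genes. In a bulk library, a weak OCR in all cells and a strong OCR in a few of them cannot be told apart.

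**Figure D1:**
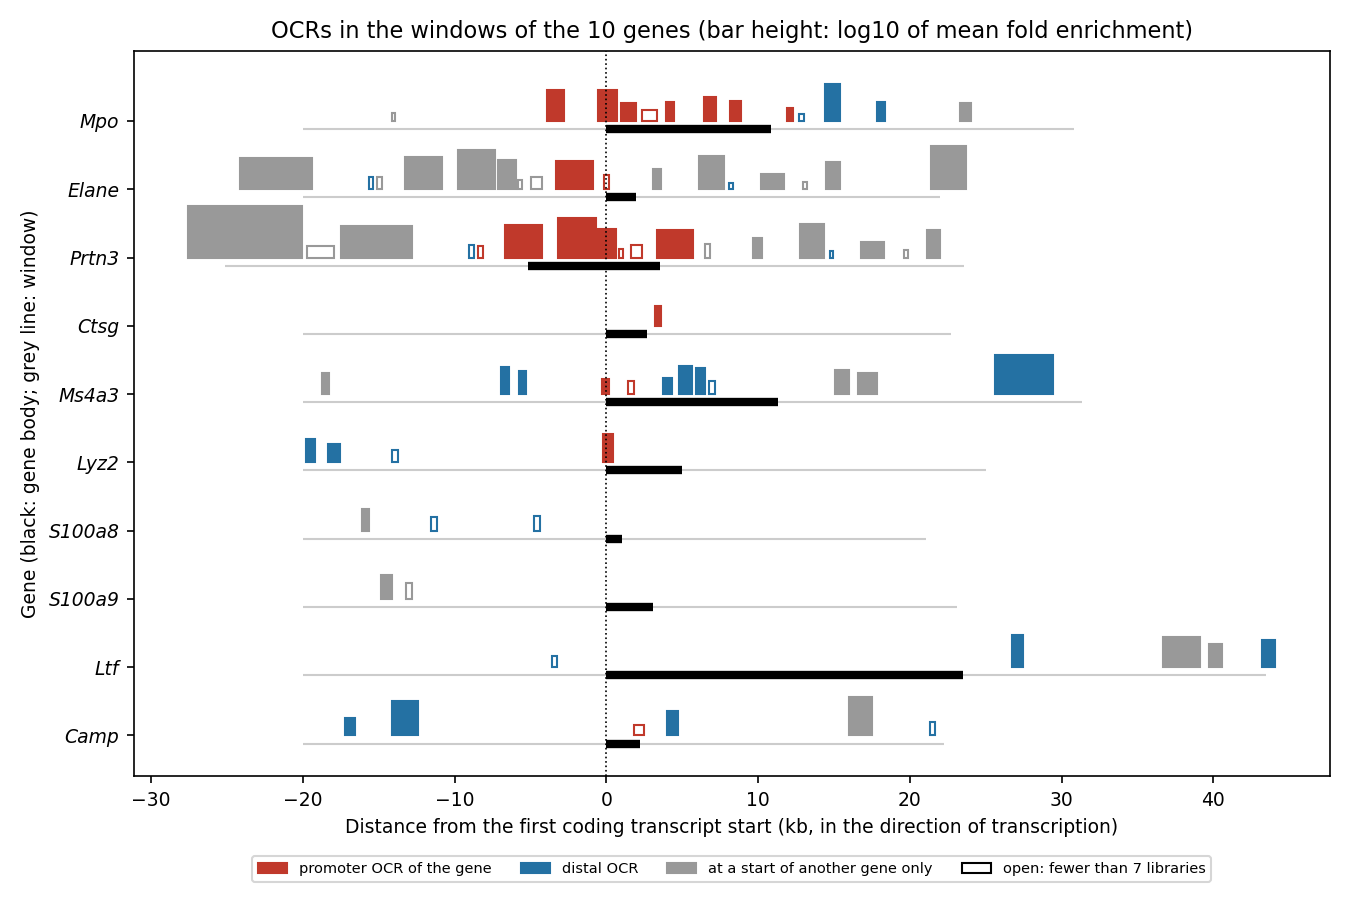
OCRs in the windows of the 10 genes, placed by distance in kb from the first coding transcript start in the direction of transcription; bar height is the log10 of the mean fold enrichment, filled bars were present in all 7 libraries and open bars in fewer. Filled promoter OCRs stand at Mpo, Elane, Prtn3, Ctsg, Ms4a3 and Lyz2, and the 4 late genes at the bottom have none.

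The exact distance given for an OCR is that of its mean summit unless its edge is named. Mpo (chr11:87793581-87804413, plus strand) had 13 OCRs in its window, 10 of them in all libraries. Its start lay inside an OCR of chr11:87793056-87794248 whose summit fell in the UTR of the first exon, 0.01 kb from the start, with a fold enrichment of 16.4 at the lowest (HPC7-6), 26.3 at the median and 31.3 at the highest (HPC7-8), and a mean of 24.8 ± 6.06 (SD, n = 7). Between 97 and 529 reads stood at that summit, and the 95% Poisson interval of the fold enrichment, which covers counting error only, ran from 22.7 to 27.0 in HPC7-1 and from 13.4 to 19.9 in HPC7-6. An OCR of about the same height lay 3.30 kb upstream, at 26.1 ± 5.5, and its summit moved by only 11.4 bp (SD) between libraries. Since Mpo has annotated transcript starts along its body, 5 further OCRs there and just past its 3′ end, present in all libraries, from 1.63 to 12.12 kb downstream of the first start, also counted as promoter OCRs, with mean fold enrichments between 3.91 and 11.8.

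The strongest OCR of the Mpo window was distal. It lay 4.05 kb beyond the 3′ end of Mpo, 14.88 kb from its start, in an intron of Lpo, the neighbouring gene for lactoperoxidase. Its fold enrichment was 32.9 at the lowest, 52.1 at the median and 60.4 at the highest, and its percentile 88.8 ± 1.95 (n = 7). A weaker distal OCR, also in an intron of Lpo, had 7.03 ± 2.54. The OCR near an annotated start of Lpo had 6.47 ± 1.3.

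Elane and Prtn3 are neighbours on chromosome 10, with coding starts 6.63 kb apart, so that their windows share most of their OCRs and are not separate observations. At Prtn3 (chr10:79874476-79883174, plus strand) the strongest OCR, chr10:79876447-79878930, had its summit in an intron of a longer noncoding transcript of the gene, 2.20 kb upstream of the coding start. Its fold enrichment was 41.0 at the lowest, 60.8 at the median and 75.9 at the highest, and its percentile 90.9 ± 1.72 was the highest promoter value among the 10 genes. The OCR over the coding start reached 20.5 ± 4.50, and the OCR over the start of the noncoding transcript, 5.11 kb upstream, reached 29.2 ± 4.28. In all 7 libraries the intronic OCR was higher than both. The intronic OCR and the OCR over the noncoding start also lay within 3 kb of annotated starts of Plppr3, the neighbouring gene of a phospholipid phosphatase-related protein, so that they are promoter OCRs of that gene as well. A weaker OCR 2.17 kb into Prtn3 was listed in 6 libraries, at 3.59 ± 0.278.

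Elane (chr10:79886247-79888215, plus strand) had its promoter OCR in all libraries not over its start but upstream. The summit of this OCR lay 2.34 kb upstream, between the end of Prtn3 and the start of Elane. Its fold enrichment was 18.7 ± 4.72 and its percentile 76.6 ± 4.81. That summit lay 0.74 kb past the 3′ end of Prtn3, while the edge of the OCR reached into Prtn3. The OCR was within 3 kb of an annotated start of Prtn3 too, so that it is a promoter OCR of both genes by the rule and cannot be assigned to Elane alone. The start itself lay in a separate small OCR that was listed in 2 libraries, with a fold enrichment of 3.70 (78 reads, 95% interval 2.93 to 4.60) in HPC7-1 and 4.87 (27 reads, 3.27 to 7.01) in HPC7-5. HPC7-1 had the longest list, and the 98270 peaks of HPC7-5 were fewer than those of 4 other libraries. Of the 17 OCRs of the Elane window, 13 lay at starts of other genes only. They included Cfd, the gene for complement factor D, with OCRs of 31.9 ± 7.54 and 7.93 ± 1.62, and Med16, for a subunit of the Mediator complex, with OCRs of 17.8 ± 6.08 and 5.11 ± 1.59 inside the gene. The strongest, at 92.5 ± 13.2, lay near the starts of Med16 and R3hdm4. Around Prtn3 the highest was the OCR at the splicing factor gene Ptbp1, with 213 ± 45.4, and an OCR shared by both windows near starts of Plppr3 and Ptbp1 had 27.5 ± 7.96.

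Ctsg (chr14:56099881-56102574, minus strand), the protease gene that lies apart from the other 2 on chromosome 14, had a single OCR in its window. It was present in all libraries, with a fold enrichment of 5.32 at the lowest, 6.99 at the median and 11.7 at the highest and a percentile of 54.5 ± 10.7. It lay 0.75 kb beyond the 3′ end of the gene, 3.44 kb from the coding start, and counted as a promoter OCR only because its edge was 2.43 kb from the start of a noncoding Ctsg transcript. No OCR lay over the coding start of Ctsg in any library.

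Ms4a3 (chr19:11629496-11640851, minus strand) had an OCR over its start in all libraries, but a low one. Its fold enrichment was 3.44 at the lowest (HPC7-6), 4.80 at the median and 7.72 at the highest (HPC7-8), on 21 to 117 reads at the summit, and the promoter percentile varied between 14.9 and 55.2. Away from the start the gene had 6 distal OCRs in all libraries, the most of the 10 genes. Those in its introns at 5.04 and 6.26 kb had 19.5 ± 4.79 and 15.1 ± 4.46, and those upstream at 5.54 and 6.67 kb had 11.1 ± 2.53 and 16.4 ± 3.97. The strongest, chr19:11611391-11615244, had its summit 17.73 kb beyond the 3′ end of Ms4a3 and 3.76 kb beyond that of Ms4a2, which encodes the beta chain of the IgE receptor of mast cells and basophils. The edge of this OCR lay only 0.28 kb past the 3′ end of Ms4a2. The third intronic OCR, 3.99 kb from the start, had 5.09 ± 1.33, and OCRs near starts of Ms4a2 and of Oosp2, present in all libraries, had 12.1 ± 3.01, 8.67 ± 2.40 and 9.36 ± 2.03. The strongest had a fold enrichment of 28.9 at the lowest, 52.7 at the median and 83.5 at the highest, and it lies in the windows of both Ms4a3 and Ms4a2. Its values split by list name, with 73.9 ± 10.8 (62.3 to 83.5) in the 3 VD-named libraries and 43.9 ± 10.8 (28.9 to 52.7) in the 4 EtOH-named ones, and the part of whatever the names stand for was not tested.

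Lyz2 (chr10:117277331-117282321, minus strand) had its promoter OCR over the start, with a fold enrichment of 12.4 at the lowest, 18.7 at the median and 25.1 at the highest and a percentile of 77.3 ± 4.05. It was the only gene outside the early group whose promoter percentile was above 70 in every library. Its distal OCRs in all libraries lay 17.81 and 19.54 kb upstream, at 6.56 ± 1.17 and 11.5 ± 2.19. The latter is 8.99 kb upstream of Lyz1, a closely similar paralog with no promoter OCR in any library, and reads that fit both copies could have been split or dropped.

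The 4 late genes had 16 OCRs in their windows, 10 of them in all libraries and none of those 10 at a start of the gene itself. Camp (chr9:109847379-109849617, minus strand) had a weak OCR in its body, 2.07 kb from the start, with a fold enrichment of 2.48 in HPC7-1, 2.60 in HPC7-4 and 4.08 in HPC7-8. These libraries held 132852, 103794 and 124126 peaks, and on an equal number of the most intense peaks per library the OCR lay below every peak kept. The strongest distal OCR of Camp lay 13.59 kb upstream, with a fold enrichment of 28.5 at the lowest, 35.3 at the median and 46.2 at the highest, and the others present in all libraries, 4.49 kb downstream and 16.85 kb upstream of the start, had 12.8 ± 3.72 and 6.45 ± 1.94. The highest OCR of the Camp window, at 54.3 ± 13.3, lay at the start of Nme6, a nucleoside diphosphate kinase gene. Ltf (chr9:111019271-111042767, plus strand), the longest of the 10 genes at 23.50 kb, had no OCR within its body in any library. Its strongest distal OCR lay 3.66 kb beyond the 3′ end, at 17.1 at the lowest, 29.6 at the median and 32.7 at the highest, and the next, at 16.4 ± 6.07, was 21.5 ± 3.67 (18.1 to 25.4) in the VD-named and 12.5 ± 4.26 (7.98 to 17.5) in the EtOH-named libraries. It lay past Ccrl2, a gene for an atypical chemokine receptor whose promoter OCRs in the window had 23.8 ± 5.44 and 11.3 ± 2.05. A weak OCR 3.43 kb upstream of Ltf was listed in 3 libraries, at 3.11 ± 0.384.

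S100a8 (chr3:90668978-90670035, plus strand) and S100a9 (chr3:90692632-90695721, minus strand), with starts 26.74 kb apart, had the fewest OCRs after Ctsg, 3 and 2. None lay over either gene. The nearest to S100a8, 4.57 kb upstream, was listed in all libraries but HPC7-6, at 3.23 at the lowest, 4.52 at the median and 6.55 at the highest. The OCRs present in all libraries were 15.87 kb upstream of S100a8 near S100a7a, at 9.40 ± 2.17, and 14.50 kb upstream of S100a9 near the pseudogene Gm42579, at 12.5 ± 1.66.

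Taking the highest promoter OCR of a gene in each library, which at Mpo was the upstream OCR in HPC7-1 and HPC7-5 and the OCR over the start in the others, the percentiles ranked Prtn3 first (90.9 ± 1.72), followed by Mpo (82.5 ± 3.07), Lyz2 (77.3 ± 4.05), Elane (76.6 ± 4.81), Ctsg (54.5 ± 10.7) and Ms4a3 (35.3 ± 14.9). Lyz2 and Elane differed by less than the spread between libraries. Prtn3 was above Mpo in every library, and its lowest value, 88.5, was above the highest of Mpo, 85.7. That order rests on the intronic OCR of Prtn3, which is also a promoter OCR of Plppr3. For the OCR over the coding start alone, Mpo had 80.9 ± 4.93 (71.7 to 84.8) and Prtn3 78.5 ± 3.86 (72.3 to 83.0). Ctsg was above Ms4a3 in 7 of 7 libraries, although their ranges over libraries overlapped (40.0 to 67.4 and 14.9 to 55.2). This order turned with promoters of 1 kb, where Ctsg had no promoter OCR in any library and Ms4a3 had 34.4 ± 15.8. Percentiles move with the length of a list: among an equal number of the most intense peaks per library, Ms4a3 had 21.3 ± 9.08, Ctsg 44.5 ± 7.62, Elane 71.5 ± 2.15, Lyz2 72.3 ± 1.65, Mpo 78.5 ± 1.34 and Prtn3 88.9 ± 0.615, in the same order. Among the 13367 genes with a promoter OCR in all libraries, the median of the mean percentile was 93.1, with quartiles of 86.6 and 96.9. All 6 lay below that median: Prtn3 was higher than 38.9% of these genes, Mpo than 19.1%, Lyz2 than 15.2%, Elane than 14.8%, Ctsg than 5.75% and Ms4a3 than 1.32%.

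**Figure D2:**
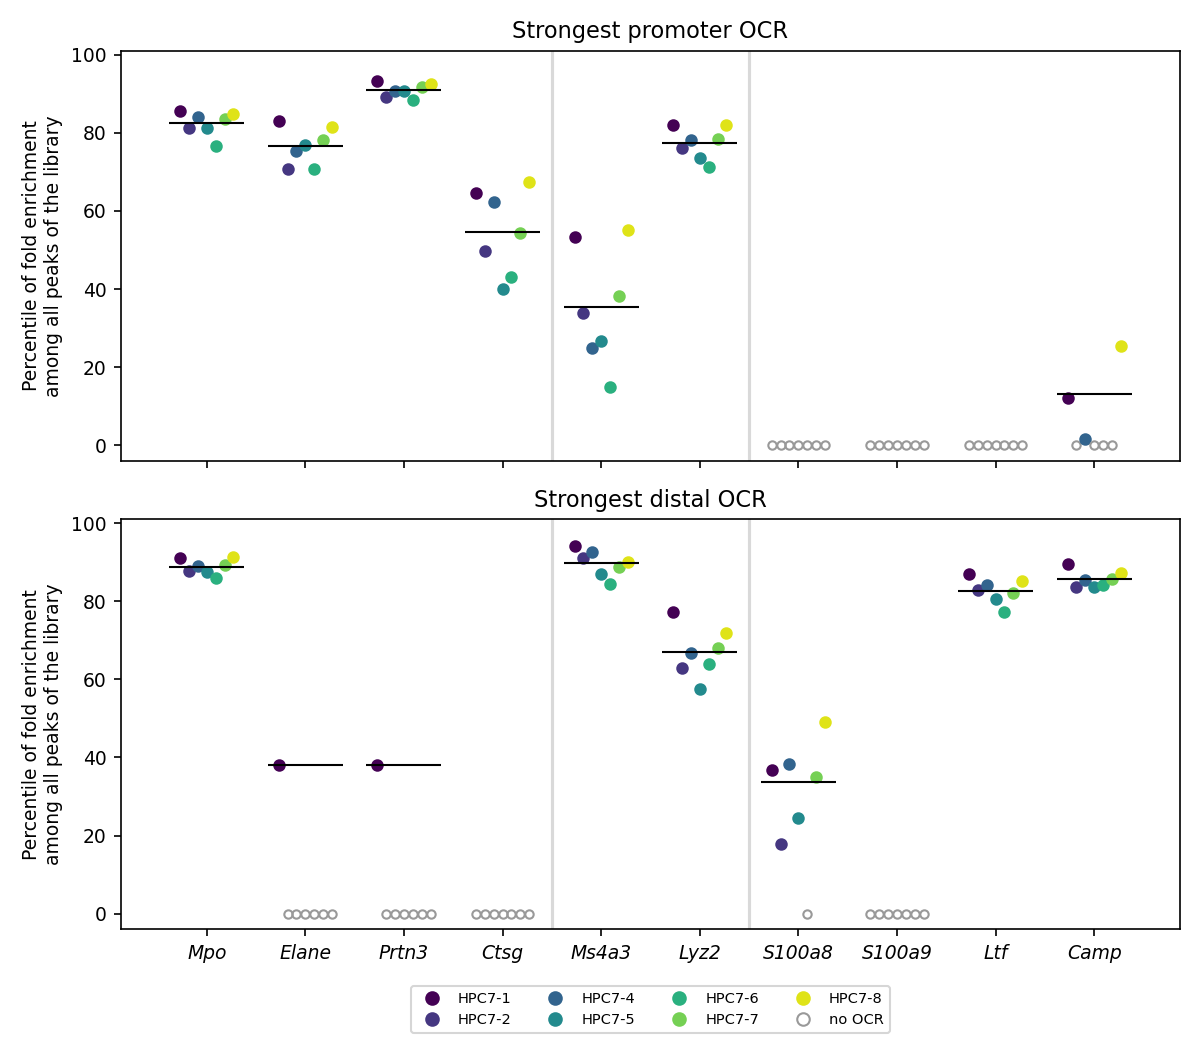
Percentile of the fold enrichment of the strongest promoter OCR (top) and the strongest distal OCR (bottom) of each gene among all peaks of the library; filled points are libraries, open points mark libraries with no OCR, and lines are means over the libraries with an OCR. The late genes S100a8, S100a9 and Ltf have no filled promoter points, while Ltf and Camp have filled distal points above 77 in all libraries.

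**Figure D3:**
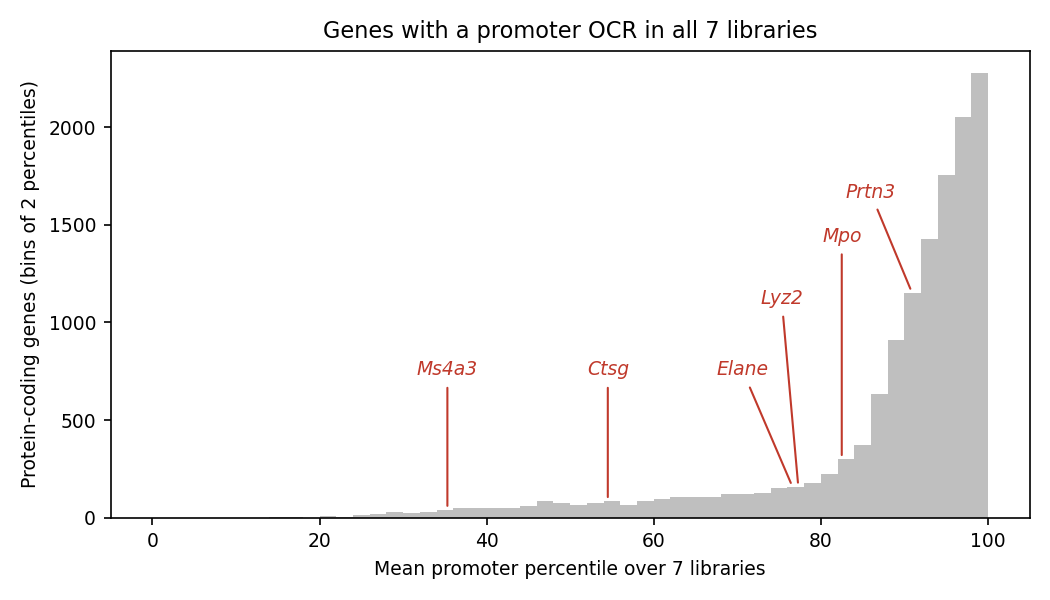
Number of protein-coding genes by mean promoter percentile over 7 libraries, for the 13367 genes with a promoter OCR in all of them, in bins of 2 percentiles. The 6 marked genes lie at or below 90.9, to the left of the median of 93.1.

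Early and late genes were contrasted by the mean promoter percentile of each set in each library, with 0 for a gene without a promoter OCR. The early genes Mpo, Elane, Prtn3 and Ctsg had 76.1 ± 4.69 (69.7 to 81.7, n = 7), and the late genes S100a8, S100a9, Ltf and Camp had 1.40 ± 2.45 (0 to 6.34). The difference was 74.7 ± 3.27 and lay between 69.7 and 78.7, early above late in 7 of 7 libraries. It is a description of chosen genes and was given no test. The difference was 76.4 ± 3.17 over the 3 VD-named libraries and 73.5 ± 3.18 over the 4 EtOH-named ones. For OCRs over a coding start alone, an alternative chosen after the values were seen, the difference was 42.2 ± 4.42, since Ctsg had none and Elane had 1 in 2 libraries.

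**Figure D4:**
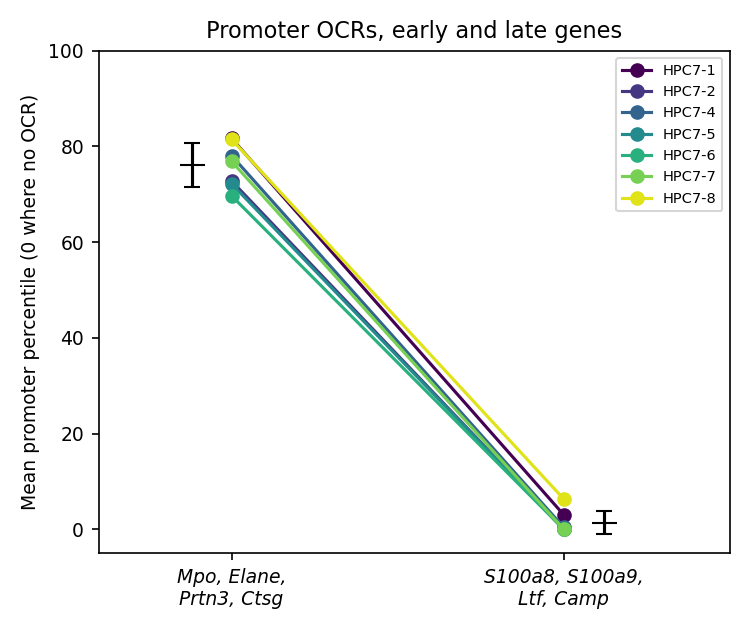
Mean promoter percentile of the 4 early and the 4 late genes in each library, joined by a line per library, with the mean and SD over 7 libraries in black. Early means lie between 69.7 and 81.7 and late means between 0 and 6.34.

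In the number of OCRs the contrast was less even. The windows of the early genes held 33 OCRs, 22 of them in all libraries, and those of the late genes 16 and 10. An OCR shared between windows was counted once, and 11 of the 33 and 6 of the 16 lay only at starts of genes outside the set. Mpo, Elane, Prtn3 and Ms4a3 each had 10 OCRs in all libraries, Ltf and Camp 4, Lyz2 3, and Ctsg, S100a8 and S100a9 1, where the median over all protein-coding genes was 4. Most of those of Elane and Prtn3 were the same OCRs. Of the 10 of Elane, 1 was a promoter OCR of the gene and 0 were distal, and the rest lay at starts of other genes only. The early gene Ctsg thus had as few as the S100 genes.

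Distal OCRs, in the window and more than 3 kb from every transcript start of any gene, depended on how promoters were defined. A distal OCR in all libraries was found at 5 of the 10 genes, against 62.1% of all protein-coding genes: Mpo, Ms4a3, Lyz2, Ltf and Camp. The strongest reached percentiles of 89.7 ± 3.35 at Ms4a3, 88.8 ± 1.95 at Mpo, 85.6 ± 2.21 at Camp, 82.7 ± 3.17 at Ltf and 66.9 ± 6.39 at Lyz2, and the median over all genes with such an OCR was 74.2. Averaged as above, the early genes had 24.9 ± 7.47 and the late genes 49.3 ± 5.12, late above early in 7 of 7 libraries. This direction turned with promoters of 1 kb, where the early genes had 78.0 ± 4.04 and the late genes 49.3 ± 5.12, and with coding transcript starts only, where they had 77.0 ± 4.61 and 66.7 ± 5.68, early above late in 7 of 7 libraries under both. With flanks of 50 kb the means were 61.2 ± 2.31 and 63.7 ± 4.82 and differed by less than the spread between libraries. No direction between early and late genes is therefore read from distal OCRs. The count of genes moved as well: with promoters of 1 kb it was 8, because Elane, Prtn3 and Ctsg were added, and with coding transcript starts only it was 9.

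Whether the promoter or the strongest distal OCR was higher was tested within libraries for 10663 genes. Each of these had a promoter OCR and a distal OCR in every library, though not always the same OCR in each. The signs of the 7 library differences were flipped in every combination (an exact two-sided permutation test, smallest possible p = 0.0156) with Benjamini-Hochberg adjustment. At an adjusted p under 0.05, 78.4% of genes had the promoter higher and 16.2% the distal OCR higher, with a median log2 difference of 1.86. Of the 10 genes, Mpo, Ms4a3 and Lyz2 could be tested. At Mpo the distal OCR was higher in 7 of 7 libraries, with a log2 difference, promoter less distal, of -0.86 ± 0.11 and an exact adjusted p of 0.017. At Ms4a3 it was higher in 7 of 7, by -3.47 ± 0.52 (exact adjusted p = 0.017), but the size differed by list name without overlap, at -3.95 ± 0.32 in the VD-named and -3.11 ± 0.27 in the EtOH-named libraries. Such a split with the EtOH-named values higher was seen at 3.15% of the genes tested, and with the VD-named values higher at 4.38%. Mpo and Lyz2 did not split. At Lyz2 the promoter was higher in 7 of 7, by 0.73 ± 0.20 (exact adjusted p = 0.017). The strongest distal OCR of Ms4a3 is nearer to Ms4a2, and that of Mpo lies within Lpo, and which gene they act on was not measured.

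**Figure D5:**
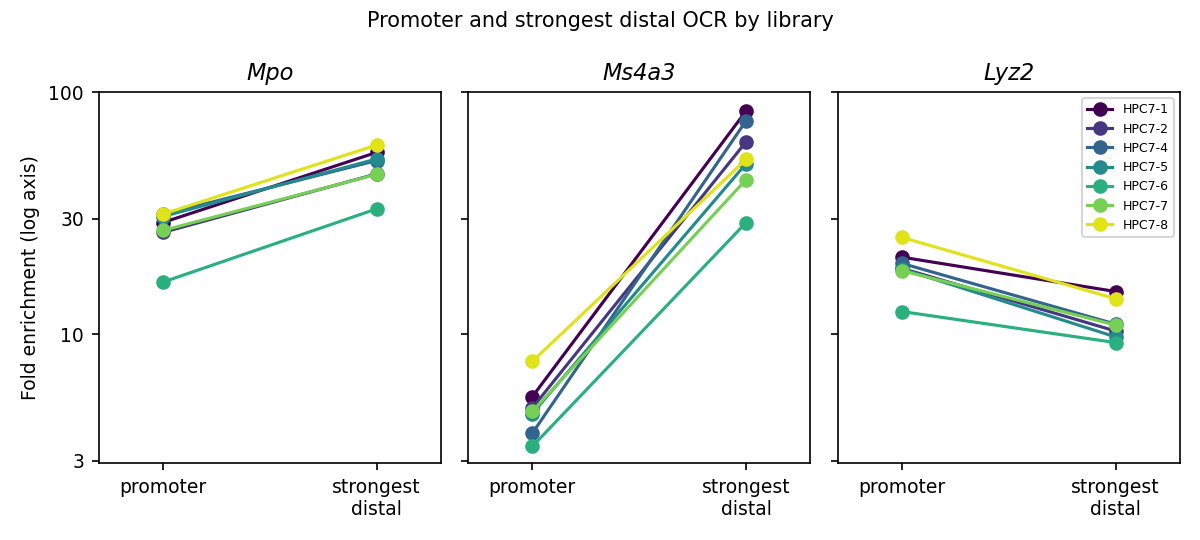
Fold enrichment (log axis) of the strongest promoter OCR and the strongest distal OCR of Mpo, Ms4a3 and Lyz2, with a line per library. All 7 lines rise toward the distal OCR at Mpo and Ms4a3, and all 7 fall at Lyz2, with mean log2 differences of -0.86, -3.47 and 0.73.

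A wider list of 21 granule genes was read in the same way. A promoter OCR in all libraries was found for 9, against the 60.9% of all genes given above, while 5 had 1 in some libraries and 7 had none, namely Chil3, Cd177, Mmp8, Lyz1, Wfdc21, Retnlg and Itgb2l. The 5 with the highest mean promoter percentile were Ctsc, the cathepsin C gene whose product activates the granule serine proteases, at 91.9 ± 1.5, Cst7, for an inhibitor of cathepsins, at 90.8 ± 1.90, Srgn, for the proteoglycan serglycin that binds granule proteins, at 90.8 ± 1.55, Cd63, for a tetraspanin of granule membranes, at 89.9 ± 1.92, and Mmp9, for gelatinase B, at 88.0 ± 1.73. The other 4 with a promoter OCR in all libraries were Pglyrp1, for a peptidoglycan recognition protein of granules, at 82 ± 2.59, Serpinb1a, for an inhibitor of granule serine proteases, at 71.4 ± 4.67, Padi4, for a histone-modifying enzyme of neutrophils, at 57.5 ± 8.01, and Bpi, for a protein that binds bacterial endotoxin, at 57.5 ± 8.17. Those with a promoter OCR in some libraries were Lcn2 in 6, Olfm4 in 5, Hp in 2, and Ngp and Cybb in 1, with means over all 7 libraries between 0.534 (Cybb) and 21 (Lcn2). The median over the 21 was 20.1, beside 44.9 over the 10 genes and 94.6 over the progenitor markers.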

How the data were processed

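Cutadapt (trimming), BWA-mem (alignment to mm10) and MACS2 (peaks, 1 list per library) were run by the authors; versions and options are not given in the sources used here. For each peak the deposited lists hold a fold enrichment (a ratio over the background), a −log10 p-value, a −log10 q-value, a score and positions, and the authors applied no normalization between libraries. The score was not used. Fold enrichments were whole multiples of 1 step in each library (tolerance 0.01), from which summit and background reads were computed.

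Overlaps of 1 bp or more joined peaks into OCRs. Promoters reached 3 kb to each side of the 141730 annotated transcript starts (GENCODE M21). Sequences came from the RefSeq copy of GRCm38. The 10 genes, the lists and the tests were chosen with earlier results of these data known. Named were all 10 genes with their promoter, strongest distal and shared OCRs and the 5 highest of the wider list; the other genes of that list and OCRs in fewer libraries were named after their values were seen. On simulated data, the merging was tested against bedtools 2.31.1 and the statistics against scipy 1.17.1. Alternatives were other thresholds, flanks, promoter distances, intensities and gene sets, limma 3.58.1 (R 4.3.3), and each library left out in turn. Python 3.11.15, numpy 2.4.6, pandas 2.3.3, pysam 0.24.0 and matplotlib 3.10.9 were used. Depth is given by peak numbers and background reads. The single-nucleus data were not analysed here.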

Additional observations from a re-analysis of the deposited data

Results flagged for a closer look

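Of 96 sets of library values examined, 4 held a library far from the others by Dixon's ratio, the gap to the nearest value over the range. Chance alone gives about 1 in 20 for independent sets. Many of the 96 repeat or derive from the same OCRs, so that rate is only a rough guide here. In HPC7-6 the promoter fold enrichment of Mpo, the higher of its promoter OCRs in each library, was 16.4, where the other 6 libraries lay between 26.3 and 31.3. At the OCR over the start alone HPC7-6 did not stand apart, since HPC7-5 had 17.1 there, and the values of HPC7-1 (28.9) and HPC7-5 (30.6) came from the OCR 3.30 kb upstream. In the same library the OCR near a start of Lpo in the Mpo window had 3.75, and the others had 6.43 to 8.01. HPC7-6 had the lowest fold enrichment at most shared OCRs, as given above, and its part in these values was not tested. In HPC7-1 the OCR 11.35 kb upstream of S100a8 had 3.70, against 4.18 to 4.22 in the other 3 libraries that listed it. By percentile HPC7-1 was instead the highest there, at 36.9 against 19.5 to 31 in those 3. In HPC7-8 the OCR 16.85 kb upstream of Camp had 10.6, against 4.78 to 6.60 elsewhere.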

How the results depend on the processing

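Leaving out each library in turn gave 45 to 48 shared OCRs in the windows, 6 genes with a promoter OCR in the remaining libraries and 5 to 6 with a distal one (6 without HPC7-6, which adds S100a8), an early-minus-late difference of 74.1 to 75.6, log2 differences of -0.88 to -0.84 at Mpo, -3.59 to -3.34 at Ms4a3 and 0.70 to 0.78 at Lyz2, and 1613 to 1710 genes with the distal and 8270 to 8537 with the promoter OCR higher. Genes with a promoter OCR in all libraries fell to 5 with promoters of 1 kb, with coding starts only and when peaks had to overlap by 50% reciprocally in every library, and to 4 over coding starts, and 50% reciprocal overlap left 37 shared OCRs. With flanks of 10 and 50 kb the windows held 42 and 124 OCRs, 29 and 75 of them shared, since their length changed. Genes with a distal OCR in all libraries numbered 9 with 50 kb, 8 with promoters of 1 kb and 9 with coding starts only. The early-minus-late difference was 62.1 with promoters of 1 kb, 61.1 with coding starts only, 59.6 with Lyz2 among the late and 66.6 with Ms4a3 among the early genes, 63.1 among promoter peaks, 67.4 over the 3 libraries in which Camp had an OCR when genes without 1 were left out, and 42.2 over coding starts, an alternative chosen after seeing the data. With 50 kb, 2602 genes of 12523 had the distal OCR higher. The early-minus-late difference of the strongest distal percentile, -24.3, turned to 28.7 with promoters of 1 kb and to 10.3 with coding starts only, because OCRs near starts then counted as distal, was -2.47 with 50 kb and lay between -26.5 and -23.0 with a library left out; these alternatives were chosen after seeing the data. No other difference changed sign, and the calls at Mpo, Ms4a3 and Lyz2 held under every alternative run, with adjusted p between 2.04e-14 and 1.10e-07 by limma and up to 0.0338 by the exact permutation test with a library left out. As the background is a single value per library, −log10 p ranks peaks as fold enrichment does and gave the same 74.7. Libraries could not be paired between groups because they form 1 group, while promoter and distal OCRs were paired within each library. A gene called without an OCR may have held weaker signal than the lists record.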
